A study of Homo sapiens with 2 samples.

Results

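The miR-200 family was followed here by the genomic cluster that each member comes from, in exosomes (small vesicles that cells release) of 2 human liver tumor cell lines. Members were taken by name: every mature miRNA of the count table whose name without its arm was miR-200a, miR-200b or miR-429 (chromosome 1 cluster) or miR-200c or miR-141 (chromosome 12 cluster). This gave 9 of the 793 distinct mature miRNAs listed, 5 from chromosome 1 and 4 from chromosome 12. The lines were MHCC97H, a highly metastatic liver carcinoma line, and HepG2, a widely used liver tumor line, and neither carried a treatment. The labels class both as hepatocellular carcinoma. Cells grew in DMEM with serum freed of exosomes, vesicles were pelleted from the medium by ultracentrifugation, and small RNA libraries were sequenced, 1 per line. The question addressed is whether the lines load different miRNAs into their exosomes. With 1 library per line there was no replicate check and no test between the lines, and a difference between lines cannot be told apart from a difference between library preparations.

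The miR-200 family keeps cells in an epithelial state. Its members repress ZEB1 and ZEB2, transcription factors that switch off E-cadherin, and ZEB1 in turn binds E-box motifs near the miR-200 genes and represses them. The family is made from a pair of primary transcripts, so members of a cluster share their transcription. Its main arms fall into a pair of seed groups, and each cluster holds members of both. The seed, bases 2 to 8 of a mature miRNA, sets most of its target choice.

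The sequences below are those of RefSeq (GRCh38.p14), with the seed in capitals, and are shown because seed and cluster group the members differently. A sequence was found for 8 of the 9 members, and miR-141-5p had none. The first 3 share one seed and come from both chromosomes.
hsa-miR-200b-3p: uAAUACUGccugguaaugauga
hsa-miR-429: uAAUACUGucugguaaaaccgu
hsa-miR-200c-3p: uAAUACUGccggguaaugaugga
The next 2 share the other seed and also come from both chromosomes.
hsa-miR-200a-3p: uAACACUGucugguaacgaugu
hsa-miR-141-3p: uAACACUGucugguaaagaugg
The last 3 are 5p arms, the strands opposite to the main arms.
hsa-miR-200a-5p: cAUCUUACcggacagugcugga
hsa-miR-200b-5p: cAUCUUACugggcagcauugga
hsa-miR-200c-5p: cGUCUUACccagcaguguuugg

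Counted from 1 at the 5′ end, miR-200b-3p (the base given first) and miR-200a-3p differ within the seed by U4C. Across the clusters, the closest pairs were near-identical. miR-200b-3p and miR-200c-3p matched at 20 of 22 compared bases, differing by U11G and A22G, and miR-200c-3p is longer by 1 base. miR-200a-3p and miR-141-3p also matched at 20 of 22, differing by C17A and U22G. How many mismatches the authors' alignment allowed is not given in the sources used here, so some reads of one member of such a pair may have been counted under the other.

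In GRCh38, the hairpins MIR200B (1167104 to 1167198), MIR200A (1167863 to 1167952) and MIR429 (1169005 to 1169087) lie on the plus strand of chromosome 1, within 1984 bases. They lie inside the span of the long noncoding host gene MIR200BHG (1162877 to 1170338). MIR200C (6963699 to 6963766) and MIR141 (6964097 to 6964191) lie on the plus strand of chromosome 12, within 493 bases. Both fall in the intron (6963349 to 6964200) of MIR200CHG as GENCODE release 29 annotates it. These places come from the annotation by gene symbol and were not used in counting.

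The promoter windows of the 2 host genes, 250 bases before to 50 bases after the annotated start (RefSeq, GRCh38.p14, plus strand), are shown because each cluster lies within the span of 1 host gene. Capitals mark CACCTG, the E-box form that ZEB1 is known to bind, searched on both strands (CAGGTG on the other). The first window is chr1:1162627-1162926.
MIR200BHG: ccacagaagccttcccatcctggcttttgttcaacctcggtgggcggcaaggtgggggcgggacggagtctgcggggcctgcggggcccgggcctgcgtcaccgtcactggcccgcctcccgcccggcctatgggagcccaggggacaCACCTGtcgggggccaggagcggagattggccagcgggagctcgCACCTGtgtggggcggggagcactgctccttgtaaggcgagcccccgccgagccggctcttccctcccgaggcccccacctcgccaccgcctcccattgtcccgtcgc
The second is chr12:6962995-6963294.
MIR200CHG: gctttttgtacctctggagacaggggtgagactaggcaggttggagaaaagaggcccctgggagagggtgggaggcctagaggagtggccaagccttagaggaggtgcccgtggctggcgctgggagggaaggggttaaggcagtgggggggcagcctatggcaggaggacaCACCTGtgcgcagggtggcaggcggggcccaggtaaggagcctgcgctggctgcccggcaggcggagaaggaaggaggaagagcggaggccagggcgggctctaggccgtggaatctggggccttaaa
The MIR200BHG window held 2 matches, starting 102 and 58 bases before the start, and the MIR200CHG window held 1, starting 78 bases before it. All 3 were on the plus strand and none overlapped another. Of 35116 promoter windows of this length, 7231 (20.6%) held the motif on either strand, so the matches are a description of these letters and not evidence of binding.

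Depth was unequal, with 304457 miRNA reads in MHCC97H and 22831 in HepG2, a 13.3-fold gap. Levels are given as reads and as CPM, counts scaled to a common total of miRNA reads. In HepG2, 1 read was worth 43.8 CPM, against 3.28 CPM in MHCC97H. A count of 0 was taken to allow up to 3 reads, which is 131 CPM in HepG2 and 9.85 CPM in MHCC97H. The abundant miRNA of hepatocytes, miR-122-5p, stood at 979 CPM in MHCC97H and 1051 CPM in HepG2. Its source was not tested, so these levels do not check the labelled tissue. Intervals are exact 95% intervals (Clopper-Pearson for shares and ratios, Poisson for levels, conditional odds-ratio intervals for fold differences between ratios taken within libraries). With these floors, they cover counting error of reads only, since each line had 1 library. Reads were not marked by molecular identifiers, so repeated copies of a molecule could not be told apart and the intervals may be too narrow.

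The family as a whole took a small part of each library. It held 1783 reads in MHCC97H, 0.586% of miRNA reads (0.559 to 0.613%), and 87 reads in HepG2, 0.381% (0.305 to 0.470%). The summed level was therefore 5856 CPM against 3811 CPM, a ratio of 1.54 (1.24 to 1.93), or 0.62 on the log2 scale. Which library was higher in this total changed with the scaling. The median log2 ratio of MHCC97H over HepG2 was 1.12 over the 543 miRNAs that reached 10 CPM in either library, of which 181 had no HepG2 read. With that median set to 0 (median centring) the family's log2 ratio was -0.50 (-0.81 to -0.17), and scaled to the reads outside the 16 most abundant miRNAs it was -0.045 (-0.36 to 0.28). The median itself was 0 when each zero count was set to 3 reads, or to no difference where 3 reads would turn the sign. The make-up of the family, in contrast, was turned around between the libraries. In MHCC97H the chromosome 1 cluster supplied 111 of the 1783 family reads, or 6.23% (5.15 to 7.45%). In HepG2 it supplied 76 of 87, or 87.4% (78.5 to 93.5%). The ratio of chromosome 1 to chromosome 12 reads was 0.066 in MHCC97H and 6.91 in HepG2, a 104-fold difference (52.7 to 222). This comparison is made within each library, so it does not depend on how the libraries were scaled. Levels in exosomes cannot tell fewer exporting cells, less RNA in each cell and less export apart.

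**Figure D1:**
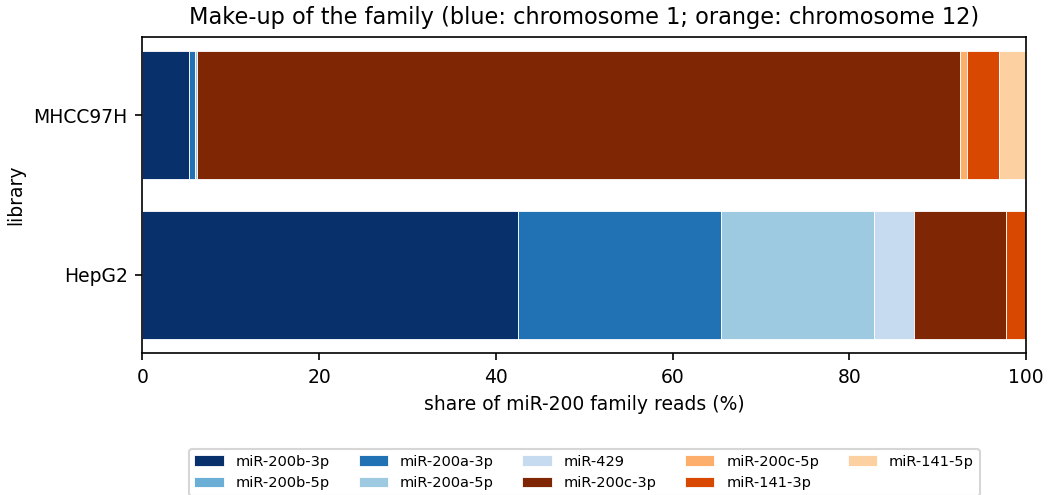
Share of all miR-200 family reads (%) taken by each mature member, 1 bar per library, with chromosome 1 members in blue and chromosome 12 members in orange. miR-200c-3p fills 86.3% of the MHCC97H bar and 10.3% of the HepG2 bar, where chromosome 1 members take 87.4%.

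The members of the chromosome 1 cluster were higher in HepG2. Summed, they stood at 365 CPM in MHCC97H and 3329 CPM in HepG2, 9.13-fold higher in HepG2 (6.73 to 12.3). The log2 ratio of MHCC97H over HepG2 was -3.19, and -4.31 with median centring (-4.74 to -3.87). A member was called when its log2 ratio, with 1 CPM added to each level, was at least 2-fold and the interval of its plain ratio left out 1. Of the 5 members, 4 were called higher in HepG2 and none in MHCC97H, and miR-200b-5p did not pass the 10 CPM filter. Of the 543 miRNAs that passed it, 9.02% were called higher in HepG2, and 181 had no HepG2 read and so could not be. miR-429 passed that filter only through HepG2, where it was high, and so had to differ.

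miR-200b-3p, a main arm that targets ZEB1 and ZEB2, had 94 reads in MHCC97H and 37 in HepG2. That is 309 CPM (249 to 378) against 1621 CPM (1141 to 2234), so the level intervals did not overlap. It ranked 177th by abundance in MHCC97H and 63rd in HepG2. miR-200a-3p, whose seed differs by a single base, had 11 reads against 20. Its level was 36.1 CPM (18.0 to 64.6) in MHCC97H and 876 CPM (535 to 1353) in HepG2, again without overlap, and its rank went from 354th to 88th. miR-200a-5p, the opposite strand of the same hairpin, had 4 reads against 15, or 13.1 CPM (3.58 to 33.6) against 657 CPM (368 to 1084). miR-429, made by the last hairpin of the cluster, had 1 read against 4, and its 53.3-fold ratio had an interval of 5.28 to 2627. miR-200b-5p, the minor arm, had 1 read in MHCC97H and none in HepG2 and did not reach 10 CPM in either library.

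**Figure D2:**
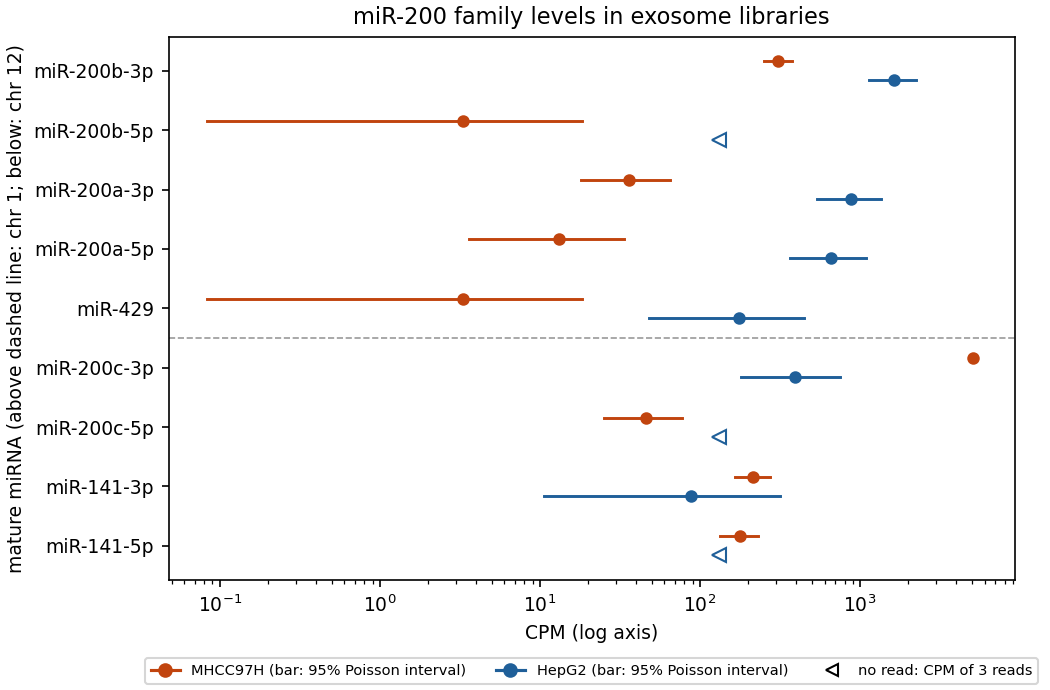
Level of each member in CPM on a log axis, with 1 point per library and its 95% Poisson interval. Open triangles mark libraries with no read, drawn at the CPM of 3 reads, and the dashed line parts the clusters: miR-200b-3p, miR-200a-3p, miR-200a-5p and miR-429 lie further right in HepG2, and miR-200c-3p, at 5055 CPM, further right in MHCC97H.

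The chromosome 1 members did not all differ by the same amount. The HepG2 excess was 5.25-fold for miR-200b-3p (3.49 to 7.75), 24.2-fold for miR-200a-3p (11.1 to 56.0) and 50.0-fold for miR-200a-5p (15.9 to 207). Within each library, miR-200a-3p had 0.117 reads for every read of miR-200b-3p in MHCC97H and 0.541 in HepG2, a 4.62-fold difference (1.88 to 11.7). miR-200b-3p accordingly made up 84.7% of the cluster's reads in MHCC97H (76.6 to 90.8%) and 48.7% in HepG2 (37.0 to 60.4%). Without miR-200b-3p, the cluster's log2 ratio of MHCC97H over HepG2 was -4.94 (-5.85 to -4.08), against -3.19 with it (-3.62 to -2.75). The 94 miR-200b-3p reads in MHCC97H amounted to 6.11% of the 1539 reads of its near-identical relative miR-200c-3p. Whether reads of miR-200c-3p were counted among them was not tested. miR-429 could not be placed beside the others, since its ratio to miR-200b-3p differed 10.2-fold with an interval of 0.95 to 506.

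The members of the chromosome 12 cluster leaned to MHCC97H, which rested mainly on miR-200c-3p. Summed, they stood at 5492 CPM in MHCC97H and 482 CPM in HepG2, 11.4-fold higher in MHCC97H (6.35 to 22.9). The log2 ratio was 3.51, and 2.39 with median centring (1.55 to 3.40). Of the 4 members, 2 were called higher in MHCC97H and none in HepG2, against 20.4% of the 543 miRNAs called higher in MHCC97H. With zero counts set to 3 reads, the call of miR-141-5p was lost, leaving 1 of 4 against 18.4%. miR-141-5p and miR-200c-5p passed the 10 CPM filter only through MHCC97H.

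miR-200c-3p, the counterpart of miR-200b-3p on chromosome 12, had 1539 reads in MHCC97H and 9 in HepG2. That is 5055 CPM (4805 to 5314) against 394 CPM (180 to 748), which placed it 41st in MHCC97H and 121st in HepG2. Its level was 12.8-fold higher in MHCC97H (6.74 to 28.1). At the depth of the HepG2 library, the MHCC97H count would correspond to 115 reads. miR-141-3p, which carries the other seed, had 65 reads against 2, or 213 CPM (165 to 272) against 87.6 CPM (10.6 to 316). These intervals overlapped, and its ratio of 2.44 had an interval of 0.65 to 20.6, so it was not called.

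miR-141-5p had 54 reads in MHCC97H and 0 in HepG2. With the 0 set to 3 reads it was 1.35-fold higher in MHCC97H, which is less than 2-fold. Its exact interval had a lower end of 1.06. It met the fold rule only because the HepG2 level was taken as 0 before 1 CPM was added. At HepG2 depth its MHCC97H count would correspond to 4.05 reads. The call was also lost under 3 of 4 other settings of the totals, where the lower end was 0.49, 0.67 or 0.94, and with a 99% interval, where it was 0.73. miR-200c-5p had 14 reads against 0, and its 46.0 CPM in MHCC97H lies under the 131 CPM that 3 reads are worth in HepG2, so a difference was not detectable at this depth. Without miR-200c-3p, the log2 ratio of the cluster was 2.32 (0.44 to 5.38), against 3.51 with it (2.67 to 4.52). The HepG2 side of that smaller sum was 2 reads of miR-141-3p.

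**Figure D3:**
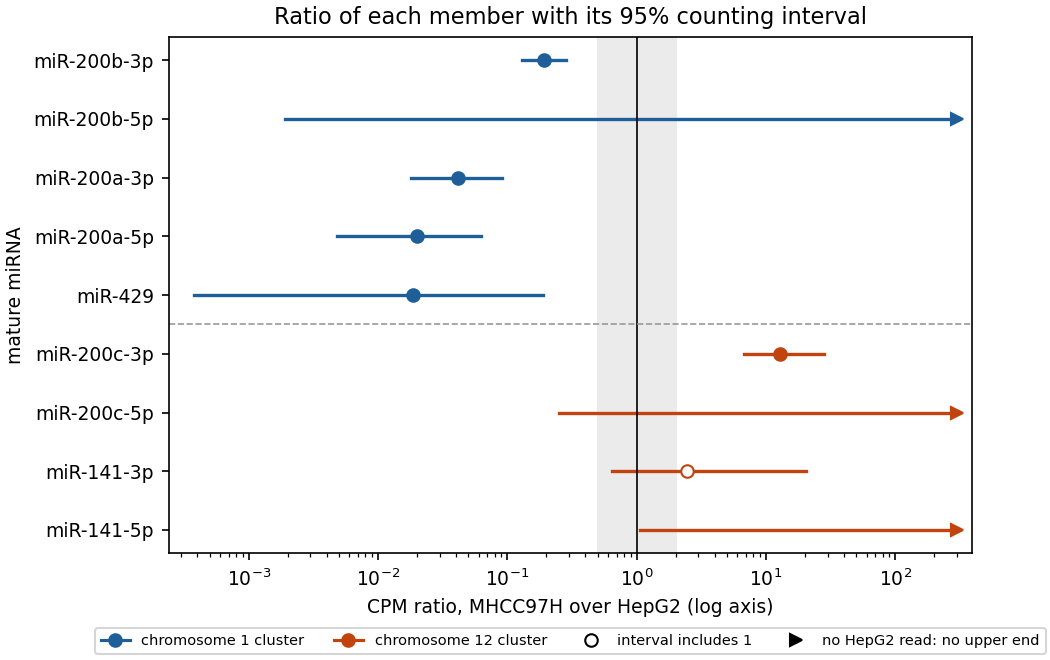
CPM ratio of MHCC97H over HepG2 for each member on a log axis, with exact 95% counting intervals. The grey band spans less than 2-fold. Open circles mark ratios whose interval includes 1, and arrows mark members with no HepG2 read, which have no circle. The intervals of miR-200b-3p, miR-200a-3p, miR-200a-5p and miR-429 lie below 1. Those of miR-200c-3p and miR-141-5p (from 1.06) lie above it. Those of miR-141-3p (0.65 to 20.6), miR-200b-5p and miR-200c-5p include 1.

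Grouped by seed, the reads gave a different picture from the clusters. The seed shared by miR-200b-3p, miR-429 and miR-200c-3p (the miR-200b seed group) stood at 5367 CPM in MHCC97H (1634 reads) and 2190 CPM in HepG2 (50 reads), 2.45-fold higher in MHCC97H (1.85 to 3.32). The seed shared by miR-200a-3p and miR-141-3p (the miR-200a seed group) stood at 250 CPM in MHCC97H (76 reads) and 964 CPM in HepG2 (22 reads), 3.86-fold higher in HepG2 (2.29 to 6.27). Each seed group mixed a member higher in HepG2 with one higher in MHCC97H or not called. Of the miR-200b seed group's reads, chromosome 1 supplied 5.81% in MHCC97H (4.73 to 7.06%) and 82.0% in HepG2 (68.6 to 91.4%). Of the miR-200a seed group's, it supplied 14.5% in MHCC97H (7.45 to 24.4%) and 90.9% in HepG2 (70.8 to 98.9%). In both seed groups, then, the HepG2 reads came mostly from chromosome 1 and the MHCC97H reads mostly from chromosome 12.

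The balance between the seeds also differed. The miR-200a and miR-141 seed held 4.44% of the reads of both seed groups in MHCC97H (3.52 to 5.53%) and 30.6% in HepG2 (20.2 to 42.5%), a 9.46-fold difference in their ratio (5.16 to 16.8) that does not depend on scaling. The direction of the miR-200b seed total rested on 1 member. Without miR-200c-3p its log2 ratio turned from 1.29 to -2.52 (-3.07 to -1.96). The miR-200a seed group has 2 members, so leaving out 1 gives the ratio of the other by construction. Its log2 ratio was -1.95, and without miR-200a-3p it was 1.29 (-0.63 to 4.36), an interval that holds both signs. Without miR-141-3p the log2 ratio of the miR-200a seed group was -4.60 (-5.81 to -3.47). With median centring, the log2 ratio of the miR-200b seed group was 0.18, with an interval of -0.23 to 0.61, and that of the miR-200a seed group was -3.07 (-3.77 to -2.31).

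**Figure D4:**
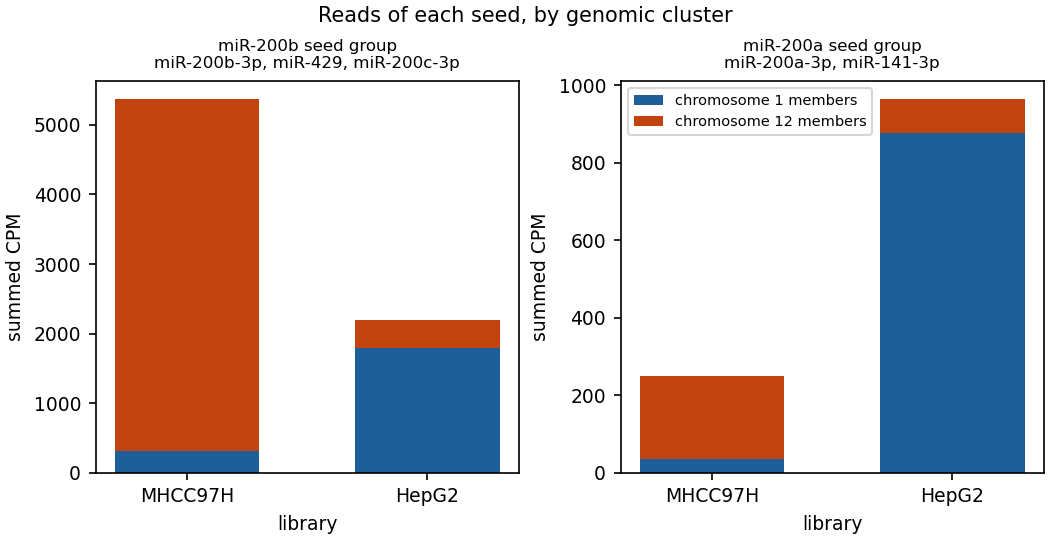
Summed CPM of the members that share a seed, in each library, with the chromosome 1 part in blue and the chromosome 12 part in orange; the axes of the panels differ. The miR-200b seed group reaches 5367 CPM in MHCC97H and 2190 CPM in HepG2, and the miR-200a seed group 250 CPM and 964 CPM.

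Comparing near-identical partners across the clusters gave the same direction for each seed. miR-200b-3p had 0.061 reads per read of miR-200c-3p in MHCC97H and 4.11 in HepG2, a 67.3-fold difference (30.5 to 162). miR-200a-3p had 0.169 reads per read of miR-141-3p in MHCC97H and 10.0 in HepG2, a 59.1-fold difference (11.2 to 553), which rests on 2 HepG2 reads of miR-141-3p. The intervals of these 2 differences overlapped widely.

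Both arms of a hairpin were counted for miR-200a, miR-200b, miR-200c and miR-141. The 5p arm of miR-200a took 4 of 15 hairpin reads in MHCC97H, 26.7% (7.79 to 55.1%), and 15 of 35 in HepG2, 42.9% (26.3 to 60.6%), so a change of arm use was not detectable. For miR-141 in MHCC97H the 5p arm took 54 of 119 reads, 45.4% (36.2 to 54.8%). miR-200c differed, with 14 of 1553 reads on the 5p arm in MHCC97H, 0.901% (0.494 to 1.51%), and miR-200b had 1 of 95, 1.05% (0.027 to 5.73%). In MHCC97H the 5p shares of miR-141 and miR-200c, neighbors on chromosome 12, thus lay far apart. In HepG2 no 5p read was counted for miR-200b, miR-200c or miR-141, on 37, 9 and 2 hairpin reads.

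Other miRNAs with known ties to the epithelial state were read from lists, whose calls stand against the 20.4% and 9.02% of all 543 miRNAs called higher in MHCC97H and in HepG2. miR-205, miR-203a and the miR-34 group restrain the loss of the epithelial state. Of their 6 entries, 5 passed the 10 CPM filter, 2 were called higher in MHCC97H and none in HepG2. miR-205-5p, which also represses ZEB1 and ZEB2, had 1527 reads in MHCC97H and 2 in HepG2, a 57.3-fold ratio (15.8 to 473), and miR-203a-3p had 151 against 2, a 5.66-fold ratio (1.54 to 47.2). miR-34a-5p had 17 against 2 and was not called. Of 6 entries of the miR-183, miR-96 and miR-182 cluster, abundant in epithelia, 3 were called higher in MHCC97H and none in HepG2. miR-182-5p had 2918 reads against 26, miR-183-5p 1176 against 25 and miR-96-5p 499 against 7, and the summed list stood at 15165 CPM in MHCC97H and 2540 CPM in HepG2. In the list linked to loss of the epithelial state (miR-9, miR-10b, miR-155, miR-221, miR-222), 7 of 8 entries passed the filter. This list had 3 entries called higher in MHCC97H and 1, miR-9-5p (51 reads against 12), higher in HepG2. By mean CPM of the libraries its most abundant entries were miR-221-3p with 1730 reads against 57, miR-222-3p with 1107 against 14, both called, and miR-10b-5p with 214 against 21, not called. The third call was miR-221-5p, with 315 reads against 1. The median log2 ratios were 2.49, 3.45 and 1.19 for the entries of these 3 lists that passed the filter, beside 1.12 over all 543 miRNAs. With zero counts set to 3 reads, or to no difference where that would turn the sign, they were 0, 0.91 and 1.19, beside 0.

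Markers of other cell types were also present in the libraries. Summed levels in MHCC97H and HepG2 were 12327 and 25316 CPM for red cell, 2276 and 5212 CPM for leukocyte, 6507 and 7227 CPM for endothelial, 24128 and 29959 CPM for mesenchymal and 5301 and 394 CPM for muscle miRNAs. Members called were 1 of 5 red cell, 1 of 5 leukocyte, 1 of 2 endothelial and 2 of 10 mesenchymal entries, all higher in HepG2, and 2 of 4 muscle entries, higher in MHCC97H. Of the 543 miRNAs that passed the 10 CPM filter, 9.02% were called higher in HepG2 and 20.4% in MHCC97H. All entries of these lists passed it except among the mesenchymal ones, where 9 of 10 did. Among red cell miRNAs, miR-451a had 827 reads in MHCC97H and 459 in HepG2, miR-486-5p 2531 and 96, and miR-144-5p 258 and 18. Among leukocyte miRNAs, miR-142-5p had 499 and 46, miR-142-3p 58 and 59, and miR-223-3p 53 and 9. The endothelial miR-126-3p had 1921 and 139 and miR-126-5p 60 and 26. The mesenchymal miR-143-3p had 5531 and 476, while miR-199a-3p and miR-199b-3p carried equal counts, 754 and 79, and cannot be told apart. The mesenchymal sum includes both, each at 2477 and 3460 CPM, so it may count the same reads more than once. The muscle miRNA miR-1-3p had 1353 and 9, miR-206 had 228 and 0 and miR-133a-3p had 28 and 0, and 3 of the 4 muscle entries had no HepG2 read. Of the 2 entries of miR-122, miR-122-5p and miR-122-3p (1 read and 0), none was called. In MHCC97H no listed marker was at 0. Both libraries came from medium of cultured tumor cell lines, so these markers do not show that such cells were present. The source of these miRNAs, and its part in the miR-200 values, was not tested.

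Among 83 miRNAs outside the family with at least 20 reads in each library, those nearest in log2 ratio to the summed chromosome 1 cluster (-3.19) were miR-1290 (-3.17), miR-1246 (-3.0) and miR-451a (-2.89). Those nearest to the summed chromosome 12 cluster (3.51) were miR-30a-5p (3.74), let-7f-5p (3.19) and miR-182-5p (3.07). The likeness is a distance in log2 ratio over 2 libraries.

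**Figure D5:**
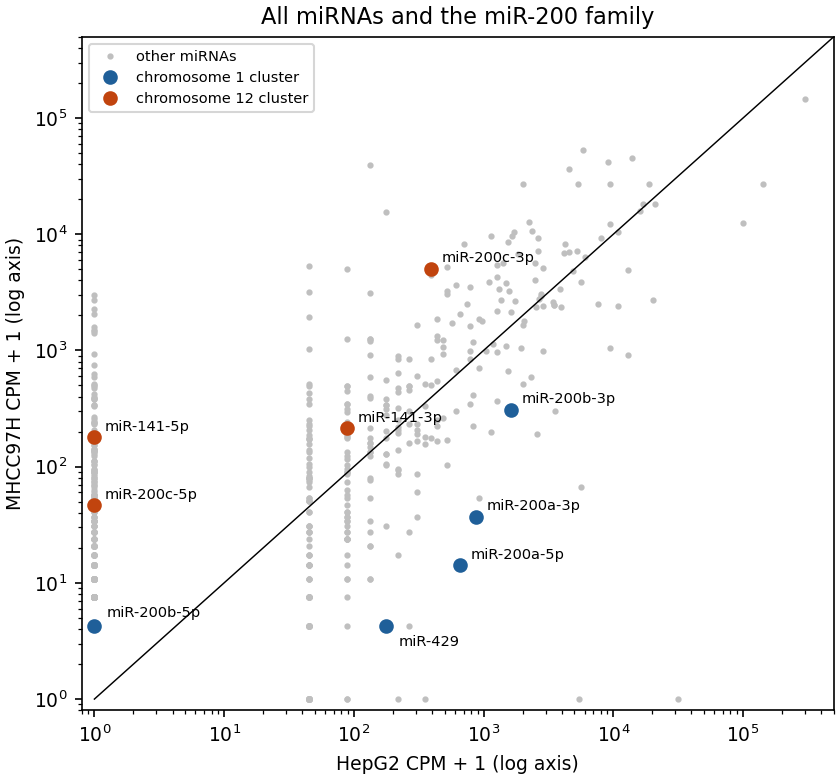
Level of each of the 793 miRNAs in HepG2 (horizontal) and MHCC97H (vertical), as CPM + 1 on log axes, with the line of equal levels. miR-200b-3p, miR-200a-3p, miR-200a-5p and miR-429 lie below the line, and the chromosome 12 members and miR-200b-5p above it, with miR-200c-3p at 394 and 5055 CPM.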

How the data were processed

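The deposited values are raw counts of reads for each mature miRNA and library, per the file headers. Reads went through cutadapt and Bowtie, per the submitters' processing notes. For both, the version and mismatch setting are not given in the sources used, and nor are the genome build and miRBase release. The table has 915 entries for 793 names. Of the 78 repeated names, none a family member, 30 had unequal counts. The highest count was used once, since repeats were read as hairpin copies of a single mature sequence. Totals were then 304457 and 22831 reads. CPM, ratios, exact intervals and the calls at 2-fold were computed over the whole table (pseudocount 1 CPM, at least 10 CPM in 1 library) and tested on simulated data. The simulated counts varied by counting error only, so they did not cover differences between library preparations. Recovery of differences was scored among abundant miRNAs only. Alternatives changed scaling (among others to TMM, trimmed mean of M-values, from edgeR), repeats, filter, fold, interval, pseudocount and members summed. Members and lists were chosen with earlier results of these data known. Named were the members by the name rule, which also takes miR-200b-5p, up to 3 most abundant entries of each list and the 3 miRNAs nearest in ratio to each cluster. miR-9-5p and miR-221-5p were named after their values were seen. Python 3.11.15 was used with scipy 1.17.1, pandas 2.3.3, numpy 2.4.6 and matplotlib 3.10.9, and edgeR 4.0.16 in R 4.3.3.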

Additional observations from a re-analysis of the deposited data

How the results depend on the processing

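The 4 chromosome 1 calls for HepG2 were counted under all 8 alternatives run on them (TMM, median centring, a total less the 16 miRNAs among the 10 most abundant of either library, summed repeats, no filter, 4-fold, 99% interval, zero counts at 3 reads). Most of these could not remove a call. Every other scaling, summed repeats included, shifted ratios towards HepG2 (log2 shift -0.052 for TMM, -1.12 for median centring). Dropping the filter can only add calls, and the 4 members had reads in both libraries. Only the 4-fold and 99% interval settings could have lost a call. Chromosome 12 calls for MHCC97H dropped from 2 to 1 with median centring, the total without abundant miRNAs, summed repeats, the 99% interval and zero counts at 3 reads, each time by losing miR-141-5p. With median centring the summed log2 ratios were -4.31 (chromosome 1), 2.39 (chromosome 12), 0.18 (miR-200b seed), -3.07 (miR-200a seed) and, reversed, -0.50 (family). With the total without abundant miRNAs they were -3.86 for chromosome 1, 0.63 for the miR-200b seed and, reversed, -0.045 for the family. Leaving out the member with the highest CPM in either library gave -4.94 and 2.32 for the clusters. It turned the sign of both seed groups, to -2.52 without miR-200c-3p and 1.29 (-0.63 to 4.36) without miR-200a-3p. These turns came by construction, with fewer members. Without miR-141-3p, which had more reads in all than miR-200a-3p, the miR-200a seed group kept its direction at -4.60. The family total, the seed group without miR-141-3p and the calls with zero counts at 3 reads were chosen after seeing the data. Without miR-200b-3p and miR-200c-3p, chromosome 1 supplied 11.3% of family reads in MHCC97H and 95.1% in HepG2. Of 63 member values under alternatives, 61 kept their direction, but many of them could not turn. A change of pseudocount cannot change a sign, and setting zero counts to 3 reads leaves members with reads in both libraries unchanged. The scalings all shifted ratios towards HepG2, so they could not turn members that were higher there. With zero counts set to 3 reads, miR-200b-5p turned to -4.95 and miR-200c-5p to -1.49, by construction of the floor. HepG2 depth limits every value that rests on 0 to 4 reads there. No paired analysis was possible because each line had 1 library.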
